A study of Glycine max with 2 samples.

Results

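The regions described here are the ChIP peaks of a soybean AGL62-like protein whose summits lay within 2 Mb of a chromosome end. They were chosen by position, with no use of their strength. A peak was kept where its summit was at most 2 Mb from position 0 (the start), or at most 2 Mb before the end of the last peak on that chromosome (the far end). The position of the last peak stands in for the chromosome's length, which is not in the peak list. The 38 ends of 19 chromosomes were used, leaving out chromosome 13. They held 2854 peaks, with 1412 at starts and 1442 at far ends. These are 16.6% of the 17179 peaks in the list and 18.1% of the 15801 peaks on the 19 chromosomes, on 8.44% of their span. They were set against 10251 peaks in the rest of the arms, the other summits in the outer 25% of each chromosome's span at either side. The remaining 2696 peaks lay in the middle of the chromosomes.

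The samples were 1 ChIP library and 1 input (total chromatin) library, both labelled replicate 1. Both came from whole seeds of the cultivar Williams 82 grown in a greenhouse, 1.0 to 1.5 mm long and holding globular-stage embryos. Labels name no genetic change or treatment for either library. The antibody of the ChIP was polyclonal, from rabbits given a peptide of AGL62-like, and the design text of the series names WOX9-like in its place. Whole seeds mix embryo, endosperm and seed coat, so binding in these tissues cannot be told apart. A peak list holds no expression values, so the labelled tissue was not checked against marker genes. The design text also speaks of a pair of replicates, and only the libraries labelled replicate 1 were analysed here. With 1 ChIP library there is no replicate and no test, so the comparisons below describe 1 list. Intervals are 95% intervals for counting error only.

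AGL62 of Arabidopsis, after which the protein is named, is a MADS-domain transcription factor of the endosperm, known for holding back cell wall formation in that tissue while its nuclei divide. MADS-domain proteins bind DNA as dimers at short AT-rich sites called CArG boxes. Plant chromosomes end in telomere repeats, and in soybean the chromosome arms next to them are known to be rich in genes and poor in repeats, while the centres are rich in repeats and recombine little. The study set out to locate the binding sites of the protein in developing seeds. Genes at the peaks and the sequence under them were not analysed here, because no genome of the list's coordinates was at hand.

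Peaks were denser in the chromosome ends than in the rest of the arms. The outer 2 Mb held 37.6 peaks per Mb, with an exact Poisson interval of 36.2 to 39.0. The rest of the arms held 27.4 (26.9 to 27.9), a ratio of 1.37 (1.32 to 1.43). Peaks covered 17.1 kb per Mb in the ends and 12.6 kb per Mb in the rest of the arms. The ends were denser than the rest of the arms on 17 of 19 chromosomes, and on chromosomes 6 and 11 they were not. The ratio was highest on chromosome 16, with 43.8 peaks per Mb in its ends and 20.8 in the rest of its arms, and lowest on chromosome 11, with 36.0 and 38.1.

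The higher density was not confined to the outer 2 Mb. The outer 2 Mb held 2854 peaks and the next 2 Mb inward, from 2 to 4 Mb, held 2961, a ratio of 0.964 (exact interval 0.915 to 1.02). The outer 2 Mb held more summits than the next 2 Mb in 18 of 38 arms and fewer in 20. By steps of 1 Mb from the end, the density was 34.0, 41.1, 38.1 and 39.8 peaks per Mb up to 4 Mb, then 34.1 and 32.9 up to 6 Mb, and 27.1 in each of the steps from 6 to 8 Mb. Over starts and far ends together, the density was highest from 1 to 4 Mb. The outermost 1 Mb (32.2 to 35.9) was then about as dense as the step from 4 to 5 Mb (32.3 to 36.0). The low outermost step was a trait of the starts, which had 30.9, 43.4, 39.0 and 42.4 peaks per Mb up to 4 Mb. Far ends had 37.2, 38.7, 37.3 and 37.2. The comparison with the next 2 Mb was added after the densities were seen, and it ends the difference: beside the next 2 Mb the outer 2 Mb were not denser. The rest of the arms is also set by the choice of 25%, and with arms taken as the outer 15% the ratio was 1.10.

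**Figure D1:**
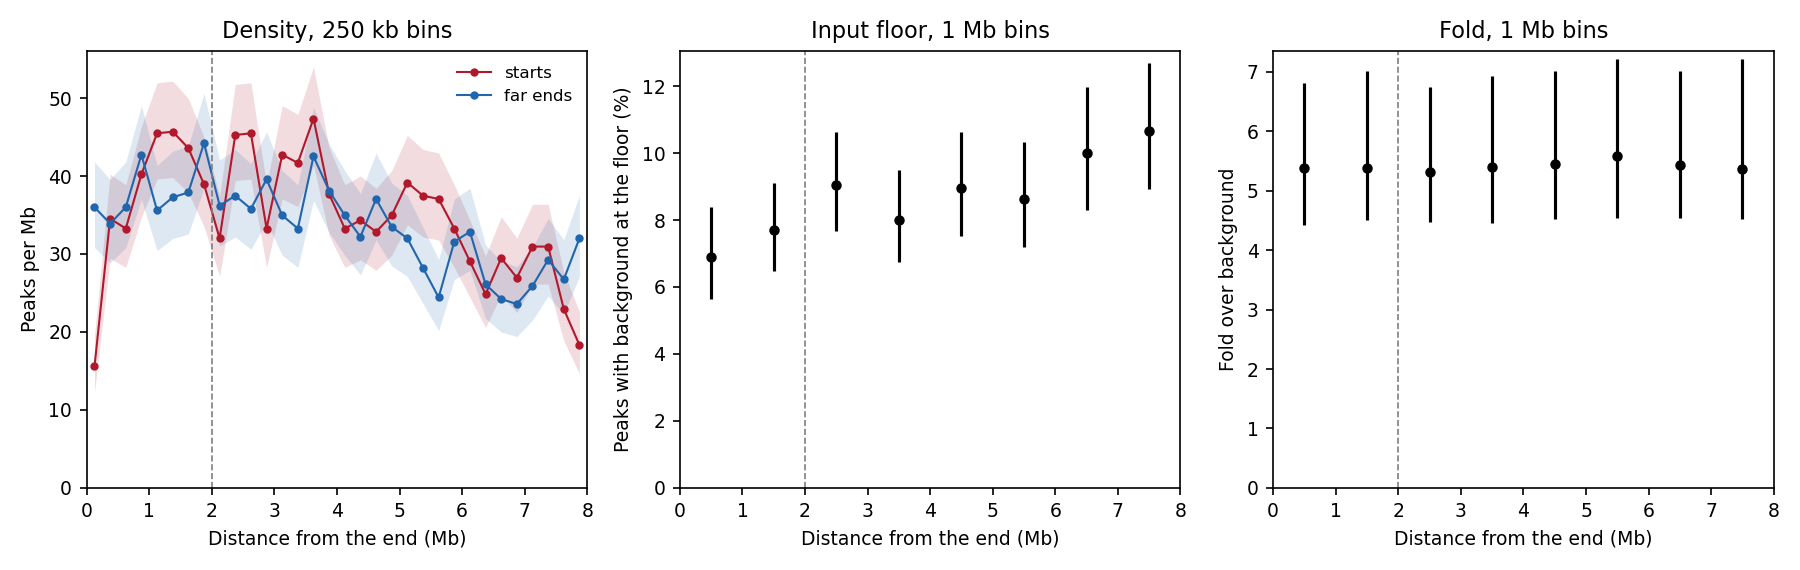
Peaks by distance from the chromosome end (Mb), with a dashed line at 2 Mb. Left, peaks per Mb in bins of 250 kb at starts and far ends (19 each; bands are 95% exact Poisson intervals); middle, percent of peaks whose background level was at its floor in bins of 1 Mb (bars are 95% Wilson intervals); right, median fold in bins of 1 Mb (bars span the middle 50% of peaks). Density is lowest in the outermost bin of the starts, at 15.6 peaks per Mb, and the median fold is between 5.32 and 5.58 in all 8 bins.

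The outermost stretch differed between starts and far ends. The outer 250 kb held 74 summits at starts, 15.6 per Mb (12.2 to 19.6), and 171 at far ends, 36.0 per Mb (30.8 to 41.8). In the next 250 kb the counts were 164 at starts and 161 at far ends. From 1 to 2 Mb the order was opposite in total, with 825 summits at starts and 736 at far ends (ratio 1.12, 1.01 to 1.24). Within that stretch, from 1.75 to 2 Mb, starts held 185 and far ends 210. The interval treats summits as independent. Counts in 100 kb windows of the ends had a variance 2.04 times their mean, so the interval, whose lower bound is close to 1, is too narrow. The near-equal totals over 2 Mb thus join bins that differ in both directions. A far end begins at a peak by construction, whereas a start is counted from position 0, so their outermost bins are not like for like. The outermost summit at a start lay at a median of 132 kb, from 28.6 kb on chromosome 11 to 270 kb on chromosome 6. With distances at starts counted from the first peak in place of position 0, the ratio of ends to rest of arms was 1.42. Over all 38 ends the outer 1 Mb held fewer summits than the inner 1 Mb in 24, more in 12 and an equal number in 2. The deficit lay mainly at starts, with 587 summits in the outer 1 Mb and 825 in the inner 1 Mb. At far ends the counts were 706 and 736.

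The number of peaks per end varied by a factor of about 3, and the median end held 76. The 38 ends had a mean of 75.1 ± 16.2 summits (SD over ends), a coefficient of variation of 21.6%, while a count of that size would vary by 11.5% from Poisson counting alone. The densest end was the far end of chromosome 12, with 111 summits or 55.5 per Mb (45.7 to 66.8). The start of chromosome 8 followed with 101 summits and the start of chromosome 16 with 95. The sparsest was the far end of chromosome 15, with 35 summits or 17.5 per Mb (12.2 to 24.3). The far end of chromosome 6 held 36 and the start of chromosome 20 held 51. The Poisson interval of the densest end thus lay far above that of the sparsest.

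Within chromosomes, starts and far ends did not differ in a fixed direction. The start held more summits on 8 chromosomes and fewer on 11, and in total the starts held 37.2 peaks per Mb (35.2 to 39.1) and the far ends 37.9 (36.0 to 40.0). On 14 of the 19 chromosomes the exact interval of the ratio of start to far end included 1. It left out 1 on chromosomes 3, 6, 8, 15 and 20. The widest differences were on chromosome 6, with 85 summits at the start and 36 at the far end (ratio 2.36, 1.58 to 3.59), and on chromosome 15, with 74 and 35 (ratio 2.11, 1.40 to 3.26). Chromosome 3 had the opposite order, with 53 at the start and 92 at the far end (ratio 0.576, 0.403 to 0.816). Chromosome 8 held 101 summits at the start and 59 at the far end, and chromosome 20 held 51 and 78. Counts were closest on chromosome 17, with 86 at the start and 85 at the far end. These intervals treat summits as independent, and 19 were computed with no correction. Counts in windows of 100 kb of the ends had a variance 2.04 times their mean, so the intervals are too narrow.

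**Figure D2:**
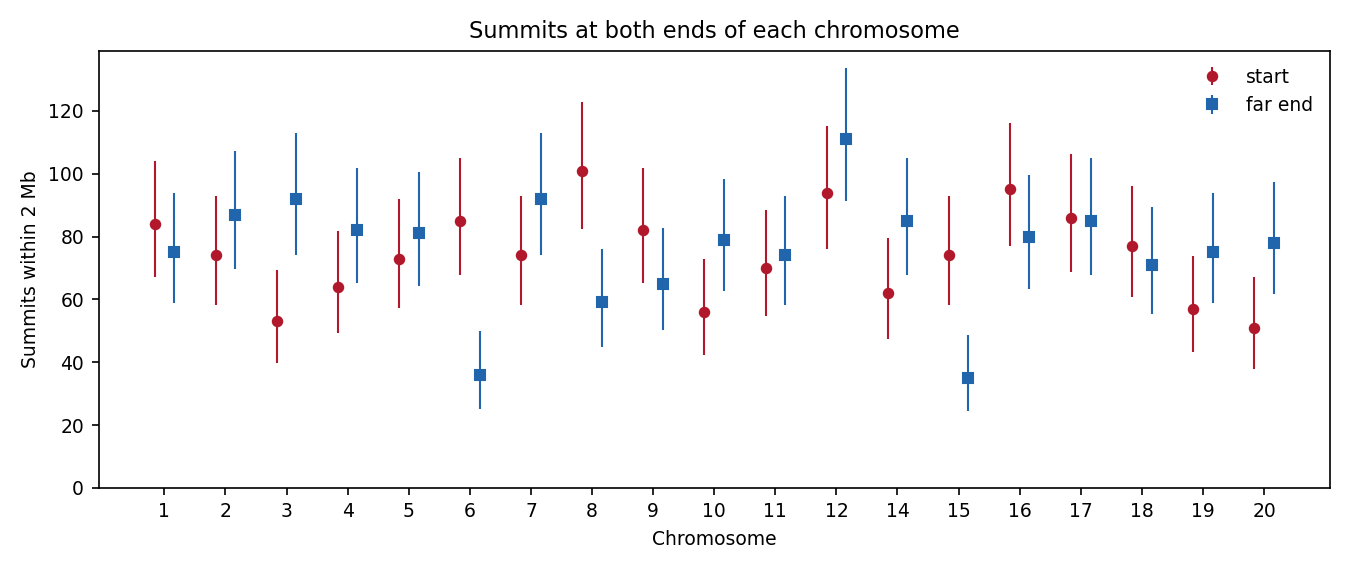
Summits within 2 Mb of the start (circles) and of the far end (squares) of each of the 19 chromosomes, with 95% exact Poisson intervals. Most pairs overlap; the far ends of chromosomes 6 and 15, with 36 and 35 summits, lie below the other 36 ends.

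Counts differed less between the ends of a chromosome than densities did between the rest of its arms. The counts at the ends of a chromosome differed by 1.5 times or more on 5 of 19 chromosomes, while the densities of the rest of its arms differed by that much on 15. Start and far-end counts did not rise together, with a Spearman's rho of -0.19 over the 19 chromosomes. Chromosome 19 had 28.5 peaks per Mb in its outer 2 Mb at the start and 37.5 at the far end, while the rest of its arms had 7.52 and 40.4. Chromosome 20 had 25.5 and 39.0 in its ends and 6.94 and 38.5 in the rest. Chromosome 17 had 43.0 and 42.5 in its ends and 54.7 and 17.2 in the rest. The coefficient of variation over the 38 arms was 21.6% in the outer 2 Mb, 33.8% from 2 to 4 Mb and 46.9% in the rest of the arm. The rest of an arm is longer than 2 Mb, so counting error adds less to its spread than to that of the ends.

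The ends of sparse and dense arms were also set side by side. On each chromosome the arm with the lower density outside its outer 2 Mb was called the sparser, and the other the denser. In these 19 sparser arms the ends held 35.4 peaks per Mb and the rest of the arms 17.4, a ratio of 2.04 (1.91 to 2.18), and the end was denser than the rest in 19 of 19. In the 19 denser arms the ends held 39.7 peaks per Mb and the rest 37.4, a ratio of 1.06 (1.00 to 1.12), and the end was denser in 10 of 19. The sorting used the density of the rest, which is the denominator of these ratios, and so moves them apart even for unrelated ends. Nothing is read from the difference between the ratios. The ends themselves did not enter the sorting. In total, those of the sparser arms held 0.893 times as many peaks as those of the denser arms (exact interval 0.829 to 0.961). By chromosome the direction was mixed: the end of the sparser arm held more summits on 8 and fewer on 11. The intervals treat summits as independent. Counts in 100 kb windows of the ends had a variance 2.04 times their mean, so the intervals are too narrow. From 2 to 4 Mb the sparser arms held 32.9 peaks per Mb and the denser arms 45.1. That band is part of the rest by which arms were sorted, so its gap is partly set by the sorting.

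Among single arms, those with the most extreme ratios are described here, chosen after their values were seen. The start of chromosome 19 had the highest ratio of end to rest, 3.79 (2.65 to 5.39), followed by the start of chromosome 20 with 3.67 (2.51 to 5.35). The start of chromosome 3 had 26.5 peaks per Mb in its outer 2 Mb and 9.13 in the rest of the arm, and its count fell off at once, with 53 summits in the outer 2 Mb and 22 in the next 2 Mb. The far end of chromosome 16 did likewise, with 80 and 32. The opposite was seen at the start of chromosome 11, where the outer 2 Mb held 70 summits and the next 2 Mb held 138, and where the ratio of end to rest was 0.657 (0.501 to 0.852). The exact interval of the ratio lay above 1 in 21 of 38 arms and below 1 in 2, the starts of chromosomes 11 and 17. At the start of chromosome 17 its upper bound was 0.992, close to 1. These 38 intervals had no correction and treat summits as independent. Counts in 100 kb windows of the ends had a variance 2.04 times their mean, so the intervals are too narrow. Across the 38 arms, the densities of the end and of the rest had a Spearman's rho of 0.40, which describes arms of 1 library.

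**Figure D3:**
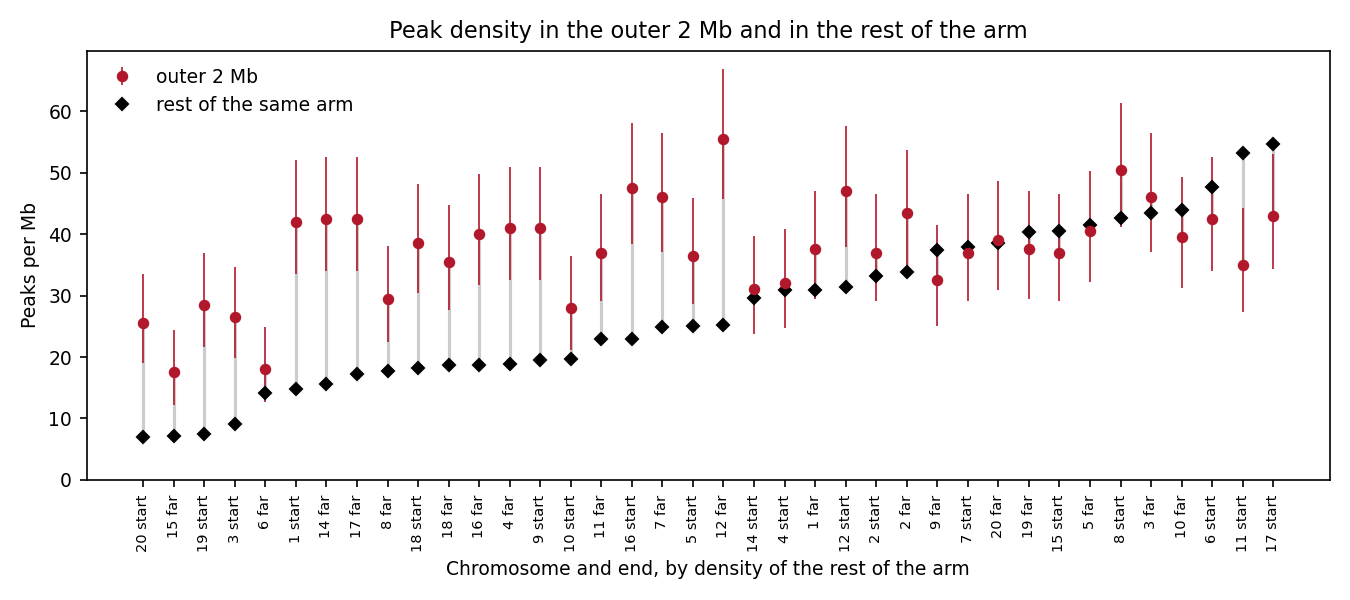
Peaks per Mb in the outer 2 Mb (circles, with 95% exact Poisson intervals) and in the rest of the same arm (diamonds) for the 38 arms, in order of the density of the rest. On the left, where the rest has 6.94 to 25.2 peaks per Mb, every end lies above its arm; on the right most intervals cover the value of the arm or lie below it.

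Peaks in the ends were not stronger than those of the arms. Fold enrichment over the local background is the authors' own value for each peak. Its median was 5.39 in the ends (interval of the median 5.32 to 5.45) and 5.44 in the rest of the arms (5.39 to 5.51). The middle 50% of peaks ran from 4.49 to 6.91 in the ends and from 4.52 to 7.02 in the rest of the arms. The median log2 fold differed by -0.013 (-0.040 to 0.0086), ends minus rest of arms. By chromosome the median fold was higher in the ends on 7 and lower on 12, with a mean difference of -0.018 ± 0.063 on the log2 scale (SD over 19 chromosomes). Starts had a median fold of 5.33 and far ends 5.42. The width of peaks was also alike, with a median of 387 bp in the ends and 389 bp in the rest of the arms.

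Strong peaks, with a fold of 10 or more, made up 7.50% of the peaks in the ends (214 peaks, Wilson interval 6.59 to 8.52), against 7.22% of the whole list. In the rest of the arms they made up 6.99% (717 peaks, 6.52 to 7.50). Each of the 38 ends held at least 1 strong peak, from 1 at the start of chromosome 18 to 11 at the start of chromosome 12. In the outermost 250 kb, 27 of 245 peaks were strong (11.0%, 7.69 to 15.6), and in the next 250 kb 7.38% were. That bin was singled out after its value was seen. Of the 20 strongest peaks of the list 6 were in the ends (30.0%), of the 100 strongest 14 (14.0%) and of the 1000 strongest 166 (16.6%), against the 16.6% of all peaks that the ends held.

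The median fold of single ends ran from 4.82 to 6.12. It was highest at the start of chromosome 12 (interval of the median 5.66 to 6.74, 94 peaks) and lowest at the far end of chromosome 5 (4.59 to 5.13, 81 peaks). Chromosome 12 also had the most summits in its ends of any chromosome, 205, and a median fold of 5.89 in its ends against 5.37 in the rest of its arms. Density and strength did not go together in general: over the 38 ends, the count and the median fold had a Spearman's rho of 0.11. Chromosomes 1 and 2 had the opposite order to chromosome 12, with median folds of 5.01 and 5.07 in their ends against 5.52 and 5.50 in the rest of their arms.

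The strongest peak in the ends, at 57421351 to 57422716 near the far end of chromosome 18, had a fold of 51.9 and 228 ChIP fragments at its summit. The interval of a fold lets the fragment count take its 95% exact Poisson bounds with the background held fixed, and here it was 45.4 to 59.0. The peak lay 543 kb from the end, and its neighbour 1158 bp away had a fold of 4.56. The second, at 47621062 to 47623730 on chromosome 8, had a fold of 48.5 (42.0 to 55.9) and lay 111 kb from the far end. Its nearest summit, 1620 bp away, belonged to a peak at 47624335 to 47625022 that had a fold of 19.1 (15.9 to 22.7) and was itself the ninth strongest of the ends. The third was again on chromosome 18, at 57415648 to 57416549, with a fold of 41.5 (35.7 to 47.9), and a peak with a fold of 10.4 had its summit 3239 bp away. At these far ends, which were picked by their strongest peaks, other strong peaks thus lay within a few kb.

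The next strongest were on chromosomes 12 and 20. The peak at 38650060 to 38651572 on chromosome 12, 1253 kb from the far end, had a fold of 27.3 (22.8 to 32.3) from 131 fragments. The peak at 1032992 to 1034026 on chromosome 20 had a fold of 26.5 (21.9 to 31.7) from 116 fragments and was the strongest at any start. It lay 1034 kb from the start of an arm that held 6.94 peaks per Mb outside its outer 2 Mb. The background levels at these 5 summits, from 3.00 to 3.84 fragments, lay in the range of the ends, whose median was 3.29. In the ends 7 peaks reached a fold of 20, with 2 at starts and 5 at far ends.

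The peaks closest to the 2 Mb limit are given for either side, and 3 on each side are too few for a comparison. The 3 summits just inside had folds of 10.00 on chromosome 2, and 8.25 and 4.34 on chromosome 16. The 3 just outside had folds of 9.30 on chromosome 2, 7.43 on chromosome 12 and 4.16 on chromosome 17. The outside summit on chromosome 2 lay 2000.1 kb from the start, in a run of 3 close summits.

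Summits in the ends lay close to others as often as in the arms. Another summit within 2 kb was found for 881 peaks of the ends (30.9%, 29.2 to 32.6), against 30.3% of the whole list. In the rest of the arms it was found for 3133 peaks (30.6%, 29.7 to 31.5). The median distance to the nearest summit was 4428 bp in the ends and 4727 bp in the rest of the arms. Of the 10 strongest peaks in the ends 7 had another summit within 2 kb, which was chosen after its value was seen. Over all 214 strong peaks of the ends the share was 29.9% (24.2 to 36.4), and over the 2640 other peaks there it was 30.9%. Runs of 3 or more summits with gaps of at most 2 kb held 281 peaks of the ends (9.85%), in 85 runs, and 9.06% of the peaks in the rest of the arms.

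The longest such runs in the ends had 5 summits each, on chromosomes 1, 9 and 16. The run at the far end of chromosome 16, from 36143050 to 36147497, held folds of 10.9, 17.5, 6.32, 5.13 and 6.04. The run on chromosome 9, from 48564572 to 48570661, held folds of 4.51, 11.1, 10.4, 3.85 and 5.09. The run on chromosome 1, from 55772832 to 55776880, had no fold above 5.48. Peaks in runs of 3 or more had a median fold of 5.21 and the other peaks of the ends 5.40. Wide peaks, of 1 kb or more, made up 3.29% of the ends (94 peaks) and 3.14% of the whole list. The widest in the ends was 4166 bp, on chromosome 2, with a fold of 20.9.

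Peaks filled the ends unevenly at a finer scale. Of 760 windows of 100 kb counted inward from the ends, 80 (10.5%) held no summit and 76 held 8 or more, around a mean of 3.76. From 2 to 4 Mb the shares were alike, with 78 of 760 windows empty and 84 with 8 or more. The fullest windows of the ends had 14 summits, and 3 windows shared that number. The peaks of the window at the far end of chromosome 20 spanned 45855097 to 45947181 and had a median fold of 5.47. Both others were at the start of chromosome 12, spanning 801106 to 871150 with a median fold of 6.50 and 1600209 to 1678652 with a median fold of 6.11. The window with the most strong peaks was also at the start of chromosome 12, where 4 of 10 peaks between 700 and 800 kb had folds from 10.7 to 12.1, while 583 of the 760 windows held no strong peak. The widest gap between neighbouring summits of an end had a median of 167 kb over the ends, and the widest of all, 406 kb, was at the far end of chromosome 10.

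**Figure D4:**
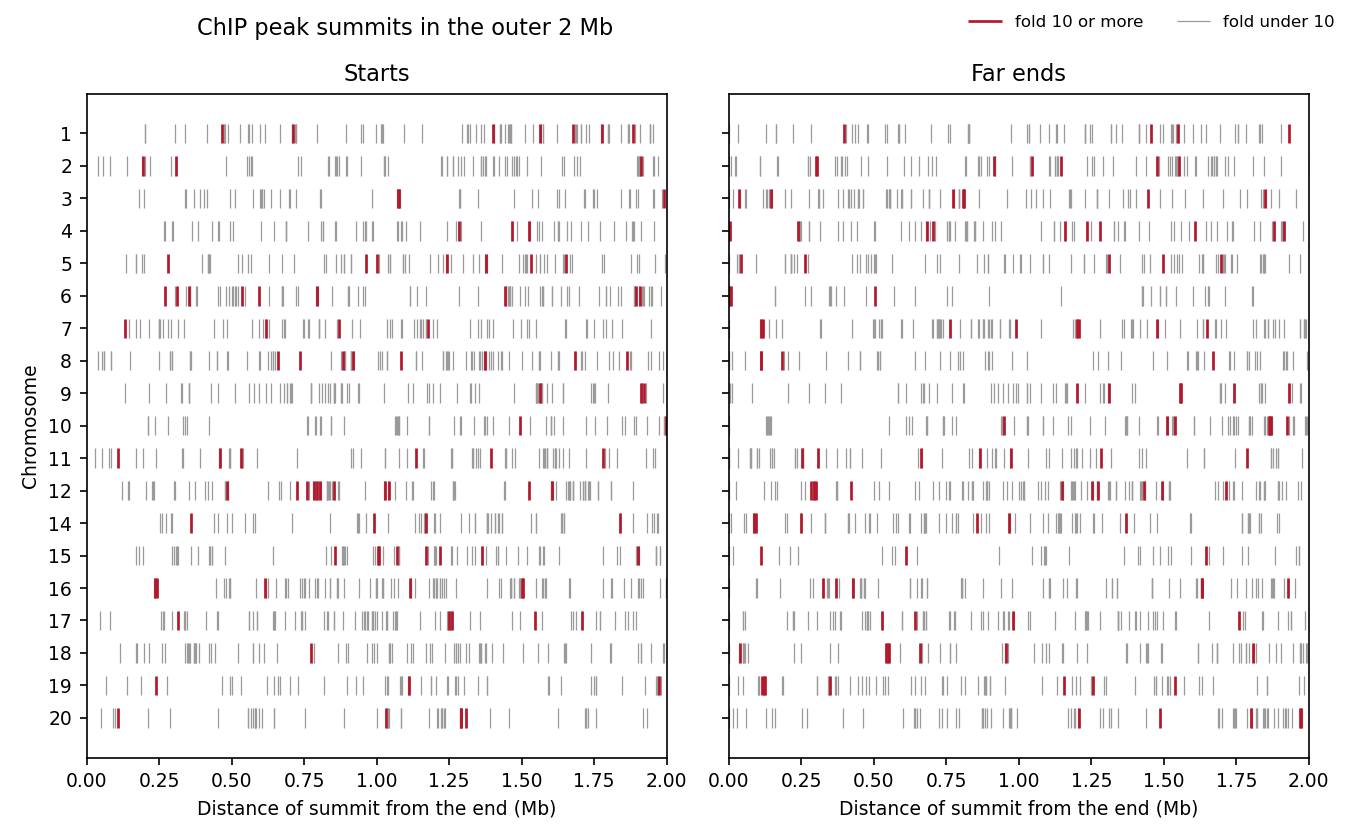
Position of each of the 2854 summits as distance from the start (left) or the far end (right) of its chromosome (Mb), with a row per chromosome. Red lines are peaks with a fold of 10 or more and grey lines the others. The starts have few lines in their outermost part, with 74 summits in the outer 250 kb, and the far ends of chromosomes 6 and 15 have few lines.

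The background that peaks were compared with was at its lowest possible level less often in the ends than in the rest of the arms. The fold and p-value of a peak together fix the number of fragments at its summit and the background level, which has a genome-wide floor of 2.76 fragments. Background at the floor was found in 209 peaks of the ends (7.32%, 6.42 to 8.34), against 10.2% of the whole list. It was found in 1000 peaks of the rest of the arms (9.76%, 9.20 to 10.3) and in 421 of the middle of the chromosomes (15.6%, 14.3 to 17.0). The difference of ends minus rest of arms was -2.43 percentage points (-3.51 to -1.27). The share was lower in the ends on 15 of 19 chromosomes and higher on chromosomes 7, 14, 15 and 19, with 18.3% in the ends of chromosome 15 against 9.48% in the rest of its arms. By steps of 1 Mb it was 6.88% in the outermost and 10.7% from 7 to 8 Mb. Beside the band from 2 to 4 Mb, where 8.51% of peaks were at the floor, the difference was -1.19 points with an interval that includes 0 (-2.58 to 0.20).

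Despite these shares the median background level was the same, 3.29 fragments in the ends and 3.29 in the rest of the arms. Levels of 3 times the floor or more were found in 2 peaks of the ends and 9 of the rest of the arms. The highest level in the ends was 10.2 fragments, against 131 in the rest of the arms. The part of the input level in the density of peaks was not tested, since input away from peaks was not analysed here.

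The depth behind the peaks was alike too. The summit held a median of 23 fragments in the ends, from 12 to 228, and 23 in the rest of the arms. At the lower Poisson bound of its fragment count, 66.9% of peaks in the ends and 67.6% of those in the rest of the arms would still have reached the lowest −log10 p of the list. The other peaks lay within counting error of the threshold.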

How the data were processed

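Chromatin immunoprecipitation and sequencing of whole soybean seeds gave 1 ChIP and 1 input library. Bowtie 0.12.7, SAMtools 0.1.18 and MACS2 are named, without roles, per the submitters' processing notes; the build and settings were not given in the sources used here. From the 1 deposited narrowPeak list, fold (a ratio) and the −log10 p-value and q-value were used as the authors deposited them; the deposited score was not. Positions are 1-based.

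Fragments and background at each summit were recovered from the fold, taken as (pileup + 1)/(background + 1), and the upper Poisson tail, as MACS2 is known to compute them. In each of the 17179 peaks 1 whole pileup met both within 0.0001 in −log10 p, and on simulated data 100% of 2000 pileups were recovered. Parts were compared by counts, medians and chromosomes, with exact Poisson, exact conditional, Wilson, Newcombe and order-statistic intervals, which treat peaks as independent. Library totals are not given. Named by rule were the 5 strongest peaks, those at the limit, and the 3 densest, 3 sparsest and 3 most unequal ends; others were named after their values were seen. The members and lists were chosen with earlier results of these data known. Chromosome 13 and 96 peaks on scaffolds were left out. Alternatives changed the end distance, arm length, q-value, merging of summits, chromosomes and zero position. Genes were not assigned, since the RefSeq table at hand names an assembly and the list names none. The software was Python 3.11.15 with numpy 2.4.6 and pandas 2.3.3, plus scipy 1.17.1 for intervals and matplotlib 3.10.9 for figures.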

Additional observations from a re-analysis of the deposited data

How the results depend on the processing

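The density ratio of ends over rest of arms depended on what the ends were set against. It was 1.19 with ends of 1 Mb, 1.44 with ends of 3 Mb, 1.10 with arms as the outer 15% and 1.75 with arms as the outer 35%. Beside the band from 2 to 4 Mb, chosen after seeing the data, it was 0.964 (0.915 to 1.02). That interval includes 1, so the difference was lost and not shown to be reversed. The number of chromosomes with denser ends was 17 of 19, against 11 with arms as the outer 15% and 9 beside that band. The share of peaks at the input floor, ends minus rest of arms, was -1.19 points beside that band, with an interval that includes 0 (-2.58 to 0.20). By construction, these settings change how far inward the comparison reaches. Over the other 60 values from 10 alternatives, results stayed within their counting interval, or counts within 1.5 times. Among these, the number of chromosomes with denser ends was 13 with ends of 1 Mb. It was 17 of 20 with chromosome 13 included. With each chromosome left out in turn, the ratio was between 1.34 and 1.40, the log2 fold difference between -0.018 and -0.0065, and the share of close neighbours, ends minus rest of arms, between -0.40 and 0.96 points. No paired analysis was possible because there is only 1 ChIP library and 1 input library. Depth limits the peaks near the threshold, which rest on as few as 12 fragments.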
